A study of Mus musculus with 2 samples.

Results

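The Rab GTPases are the largest branch of the Ras superfamily of small GTP-binding proteins. Each Rab switches between a GDP-bound form held in the cytosol and a GTP-bound form on a particular membrane, where it recruits the effectors that move, tether and fuse vesicles. In neutrophils, Rabs direct the traffic of phagosomes and endosomes and the release of granules, and loss of Rab27a impairs granule exocytosis.

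The Rab genes were taken as all genes whose symbol is Rab followed by a number, with at most 1 letter and 1 digit after it, among probe sets that the platform annotation names for 1 gene only. This gave 59 genes with 132 probe sets, of 18193 genes measured. The RefSeq genes of assembly GRCm38.p6 hold 59 symbols of that form, and all 59 were measured. The symbols chose the genes, and no measured value did.

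Total RNA was measured on 1 Affymetrix 3' array for each genotype: neutrophils grown from bone marrow of mir-223 knockout male mice, and neutrophils grown from bone marrow of wild-type male mice, both of strain C57BL/6. Blood-forming progenitors of both genotypes were kept for 6 days with G-CSF, a cytokine of granulocyte formation, and SCF, which acts through Kit. Both cultures then received cycloheximide, a blocker of translation, at 100 ug/ml for 8 min. The labels do not give the number of mice, the knockout allele or the purity of the cells.

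The microRNA removed in the knockout mice is processed into a 3' arm and a 5' arm, shown here as the factor that separates the 2 cultures. The sequences are those of RefSeq on GRCm38.p6, at chrX:96242884-96242905 and chrX:96242842-96242864 on the plus strand. Capitals mark the seed, bases 2 to 8, which pairs with target messenger RNAs.
mmu-miR-223-3p: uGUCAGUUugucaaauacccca
mmu-miR-223-5p: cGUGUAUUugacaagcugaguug
Target sites in the 3' ends of the Rab transcripts were not analysed here.

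The values are differences of log2(intensity + 16), knockout minus wild type. With 1 array per genotype there is no replicate check and no test, and this number of arrays sets the limit on precision. The spread between expressed probe sets of 1 gene, pooled over all genes with at least 2, was an SD of 0.14 on this scale, and 0.17 over the Rab genes. It is not a replicate error. A gene counted as expressed when its brightest probe set reached the median of all probe sets, an intensity of 33.9. That cut kept 49 Rab genes with 94 expressed probe sets and left 10 below it, at intensities of 6.35 to 27.2. Nearest to the cut, by the mean of both arrays, were Rab34 (40.5 on the knockout array and 33.4 on the wild-type array) and Rab36 (25.6 and 27.2). Rab34 lay just above the cut, through its knockout value only, and Rab36 just below it. The unexpressed genes were Rab3c, Rab9b, Rab26, Rab30, Rab33a, Rab36, Rab39, Rab39b, Rab40b and Rab42. They included all of the X-linked Rab genes except Rab9.

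Neutrophil identity could be read from 14 expressed markers, of which 13 were higher on the knockout array (median 0.14), with summed intensities of 209151 on the knockout array and 196230.0 on the wild-type array. The largest difference among them was that of Cd177 (0.59). Of all expressed genes, 49.7% were higher on the knockout array. The granule genes Mpo (19393 on the knockout array and 17416 on the wild-type array), Elane (15172 and 13593) and Ltf (15306 and 14627) were bright on both arrays. Markers of other blood cells were present at lower summed intensity and also differed between the arrays. Of 10 expressed markers of mast cells and basophils, all were lower on the knockout array, with a summed intensity of 4684 against 6710 on the wild-type array. Of 10 megakaryocyte and platelet markers 9 were lower, with sums of 1513 and 2301. Of 4 eosinophil markers 3 were lower, with sums of 968 and 1192. Of 9 monocyte and macrophage markers 7 were higher, with sums of 5979.6 and 5187. The part of such cells in the Rab values was not tested, and fewer cells of a type cannot be told apart from less RNA per cell. Hybridization controls added to the arrays had a median difference of -0.11, with 17 of 18 lower on the knockout array, and poly-A controls one of -0.16, with 25 of 27 lower.

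Most Rab messenger RNAs differed little between the 2 arrays. The SD of their differences was 0.21, beside 0.18 for all expressed genes. The Rab SD includes Rab7b (-0.76) and Rab4a (-0.54), the values furthest from 0, and was not computed without them. The median over the 49 expressed genes was 0.045, beside -0.00037 over all 11006 expressed genes. Within 0.2 on the log2 scale lay 36 of the 49 (73.5%), against a background of 79.6% of all expressed genes. At least 0.5 higher was 1 of the 49, Rab23, against 1.13% of all expressed genes. At least 0.5 lower were 2 of the 49, Rab7b and Rab4a, against 0.591%. No Rab gene reached 1, a 2-fold difference, in either direction, against 0.0999% of all expressed genes higher and 0.0454% lower. At a size of 0.3 there were 4 of the 49 higher (background 5.23%) and 2 of the 49 lower (2.88%). By sign, 32 were above 0 and 17 below, or 65.3% above, where all expressed genes had 49.7%.

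**Figure D1:**
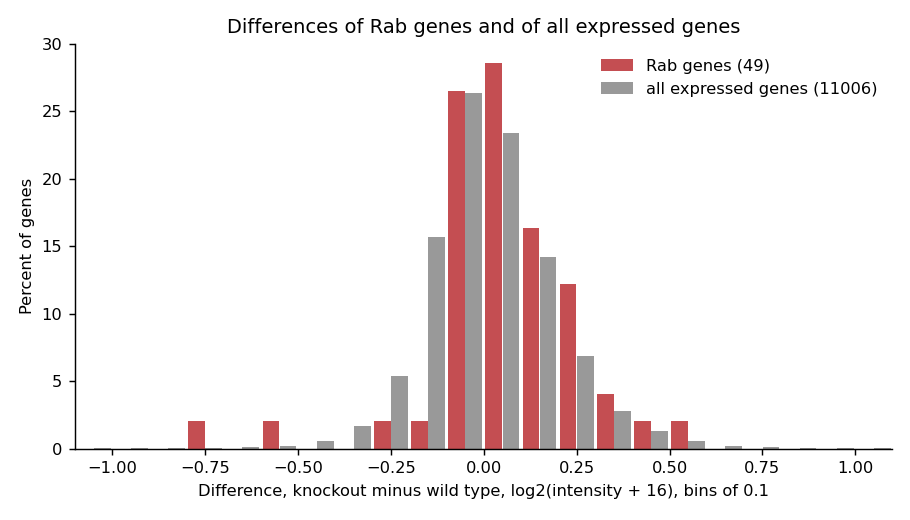
Share of genes, in percent, in bins of 0.1 of the difference, knockout minus wild type, on the log2(intensity + 16) scale. Red bars are the 49 expressed Rab genes and grey bars all 11006 expressed genes; both peak in the bins next to 0, and Rab7b and Rab4a stand alone on the lower side.

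A gene's value rests on its brightest probe set, and 22 of the 49 genes had no other expressed one. Of the other 27, 14 had expressed probe sets of 1 sign and 12 had both signs, while Rab1a had a probe set at exactly 0. The share of 1 sign, 51.9%, was that of all expressed genes, also 51.9%. The 45 expressed probe sets of Rab genes that were not the brightest had a median of 0.13, and 33 of them were above 0 (73.3%, against 58.7% of such probe sets over all genes). Several probe sets of 1 gene share its transcripts and are not replicates.

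**Figure D2:**
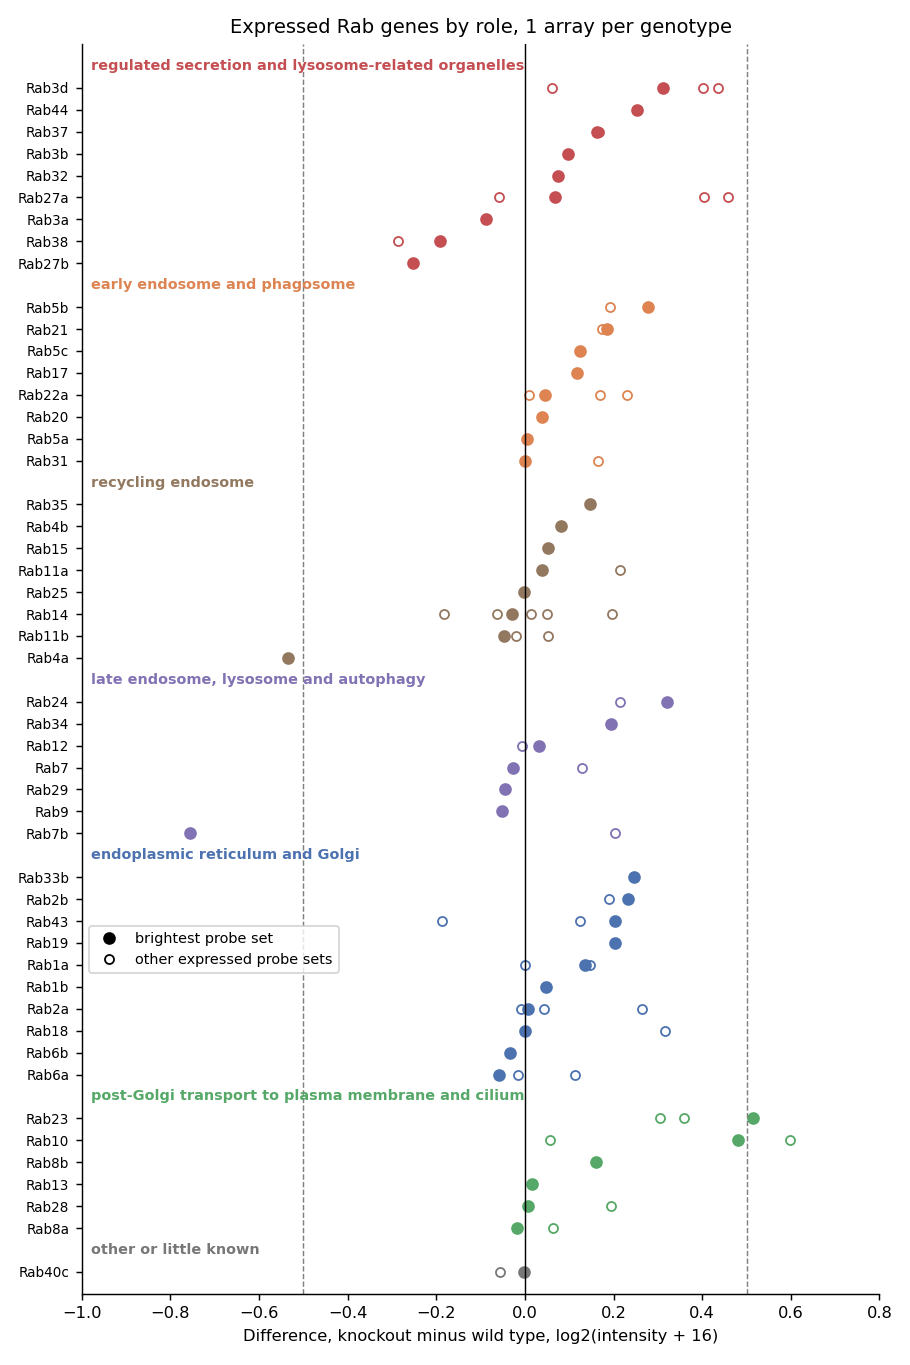
Difference, knockout minus wild type, on the log2(intensity + 16) scale for the 49 expressed Rab genes, grouped by role. Filled points are the brightest probe set and open points the gene's other expressed probe sets; dashed lines mark 0.5 in either direction, and the 2 probe sets of Rab7b lie on opposite sides of 0.

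Among Rabs of regulated secretion, those of granules and lysosome-related organelles, 9 of 11 were expressed, 6 above 0 and 3 below, with a median of 0.074. Counts above 0 in this and the following classes stand beside 65.3% of expressed Rab genes and 49.7% of all expressed genes. Each class is small, so its count is a description only. Rab3d, a Rab of secretory granules, gave an intensity of 1029.5 on the knockout array and 827 on the wild-type array, a difference of 0.31. Its next brightest probe sets gave 939 and 609 on the knockout array, against 706 and 446 on the wild-type array. All 4 of its expressed probe sets were higher on the knockout array, from 0.060 on a dim one to 0.44. Rab27a, which docks azurophil granules and other lysosome-related organelles at the plasma membrane, was less uniform. Its brightest probe set gave 1601 on the knockout array and 1527 on the wild-type array (0.068). A pair of dimmer ones gave 309 and 314 on the knockout array, against 229.7 and 224 on the wild-type array, differences of 0.40 and 0.46. The dimmest gave 52.9 and 55.7 (-0.058). The level of Rab27a on the knockout array was thus close to wild type or higher, depending on the probe set.

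Rab44, a large Rab with EF-hands that acts in degranulation of mouse mast cells, had 878 on the knockout array and 734 on the wild-type array (0.25), from 1 probe set. Rab37, found on mast cell secretory granules, gave 83.5 and 72.9 on the knockout and wild-type arrays (0.16), and 0.17 on its other probe set. Rab32, of melanosomes and platelet dense granules, gave 2066 and 1962 (0.074), and Rab3b gave 71.1 and 65.5 (0.097). The lower members of this class were Rab27b, Rab38 and Rab3a. Rab27b, the close relative of Rab27a used by platelets and mast cells, had 67.4 on the knockout array and 83.3 on the wild-type array (-0.25), from the 1 expressed of its 4 probe sets. Rab38, the relative of Rab32, had 389.9 and 447 (-0.19), and 250.3 and 309 (-0.29) on its other probe set. Rab3a, a Rab of synaptic vesicles, stood at -0.087 and -0.088 on its 2 probe sets. In this class Rab27b, Rab38 and Rab3a were lower on the knockout array, as were most mast cell and platelet markers, and the other 6 expressed genes were higher. The part of such cells in these values was not tested. The expressed mast cell and basophil markers ran from Cma1 (-0.76) to Kit (-0.047), with Cpa3 at -0.74. Those of megakaryocytes and platelets ran from Ppbp (-1.06) to Itgb3 (1.34), the 1 higher of 10, with Pf4 at -0.91.

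Rabs of early endosomes and phagosomes were all expressed, with a median of 0.081 and none at 0.5. Above 0 were 7 of 8 (87.5%, against 65.3% of expressed Rab genes and 49.7% of all expressed genes). The 7 include Rab5a at 0.0040, which stood at -0.017 with quantile normalization. Rab5b, an early endosome isoform, gave 111 and 105.5 on its 2 probe sets on the knockout array, against 88.8 and 90.4 on the wild-type array. Both were higher, by 0.28 and 0.19. Its relatives Rab5a, with 1213 and 1209 (0.0040), and Rab5c, with 305 and 278 (0.12), differed less on the knockout and wild-type arrays. Rab21, which carries integrins into endosomes, had 1496 on the knockout array and 1314 on the wild-type array (0.19), and its other probe set gave 0.17. Rab22a (0.045), Rab20 of maturing phagosomes (0.038) and Rab31 (-0.00018) were near 0 on their brightest probe sets. Dimmer probe sets of Rab22a reached 0.23, and the dimmer one of Rab31 gave 0.16. Rab17, known from transcytosis in epithelia, was dim, at 39.9 and 35.6 on the knockout and wild-type arrays.

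Rabs of recycling endosomes were all expressed and evenly divided, 4 above 0 and 4 below, with a median of 0.018. Rab4a, of the fast recycling route, gave 32.4 on the knockout array and 54.1 on the wild-type array (-0.54). It rests on 1 expressed probe set, of a class shared between transcripts, and its knockout value is below the intensity of the expression cut. The other probe set of Rab4a was below the cut and gave -0.42. With a pseudocount of 64 the value of Rab4a was -0.29 and with 1 it was -0.72. Its close relative Rab4b gave 876 and 827 on the knockout and wild-type arrays (0.082). Rab11a and Rab11b, of the slow recycling route, stood at 0.037 and -0.047. The other probe set of Rab11a gave 264 on the knockout array and 225.5 on the wild-type array, a difference of 0.21. Rab14, of the endosome and Golgi, gave 3546 and 3621 (-0.030), and its 6 expressed probe sets ran from -0.18 to 0.20. Rab35 (0.15), Rab15 (0.052) and the epithelial Rab25 (-0.0020) made up the class.

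Rabs of late endosomes, lysosomes and autophagy, 7 of 9 expressed, had 3 above 0 and 4 below, with a median of -0.026. They held the lowest value of the family. Rab7b, which acts between late endosomes and the Golgi and limits Toll-like receptor signalling in macrophages, gave 159.9 on the knockout array and 281 on the wild-type array (-0.76). Its other expressed probe set gave 131 on the knockout array and 111 on the wild-type array (0.20), so the 2 probe sets disagree on direction. Their mean was -0.28. Rab7, the general Rab of late endosomes and lysosomes, gave 3270.0 and 3330.3 on the knockout and wild-type arrays (-0.026), and 0.13 on its other probe set. Rab9, of transport from late endosomes to the Golgi (-0.053), Rab29, a partner of the kinase Lrrk2 (-0.044), and Rab12, which sends transferrin receptor to lysosomes (0.031), were also near 0.

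Rab24, an unusual Rab linked to autophagy, was higher on the knockout array, at 1389 against 1109.9 on the wild-type array (0.32). Its other probe set gave 859.8 and 739 (0.21). Rab34, which positions lysosomes, was dim, at 40.5 and 33.4 (0.20). It passed the expression cut of 33.9 through its knockout value only, so its place among the genes above 0 carries little weight. Its other probe set, below the cut, gave -0.083.

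Rabs of the endoplasmic reticulum and Golgi, 10 of 13 expressed, had a median of 0.091 and a highest value of 0.25. Above 0 were 7 (70%, against 65.3% of expressed Rab genes) and below 0 were 3. Rab33b, which binds the autophagy protein Atg16l1, gave 329.7 on the knockout array and 275.5 on the wild-type array (0.25). Rab2b had 69.0 and 56.3 (0.23), and 0.19 on its other expressed probe set, while its relative Rab2a gave 2878 and 2864 (0.0068). Dimmer probe sets of Rab2b, below the expression cut, gave 0.57, 0.47 and 0.54. The mean over all probe sets of Rab2b was 0.40. Rab1a, required for transport from the endoplasmic reticulum to the Golgi, had 4489.7 and 4087 (0.14), and Rab1b 926 and 895 (0.048). Rab43 stood at 0.20, with probe sets from -0.19. Rab19 (0.20) was dim. Rab6a, of retrograde Golgi transport (-0.059), Rab6b (-0.034) and Rab18, of lipid droplets (-0.00082), were near 0. The other probe set of Rab18 gave 401 on the knockout array and 319.5 on the wild-type array, a difference of 0.32.

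Rabs of transport from the Golgi to the plasma membrane and the cilium held the highest values of the family, with a median of 0.088. Above 0 were 5 of 6 (83.3%, against 65.3% of expressed Rab genes). Rab23, known as a brake on Hedgehog signalling, gave 148 on the knockout array and 99.1 on the wild-type array (0.51). Its dimmer probe sets gave 52.9 and 44.0 on the knockout array, against 39.8 and 30.8 on the wild-type array. All 3 were higher, by 0.30 to 0.51. The dimmest passed the expression cut of 33.9 through its knockout value only, so it adds little to the other probe sets. Rab10, which carries vesicles to the plasma membrane, gave 1469 and 1048 (0.48) on the knockout and wild-type arrays. Its other probe sets gave 729 and 476 (0.60), and 675 and 648 (0.057), all higher on the knockout array but unequal in size. Rab8b had 3925 on the knockout array and 3509 on the wild-type array (0.16), while its relative Rab8a (-0.017), Rab28 (0.0060) and Rab13 (0.015) were near 0. Outside these classes, Rab40c, which joins a ubiquitin ligase, stood at -0.0028.

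**Figure D3:**
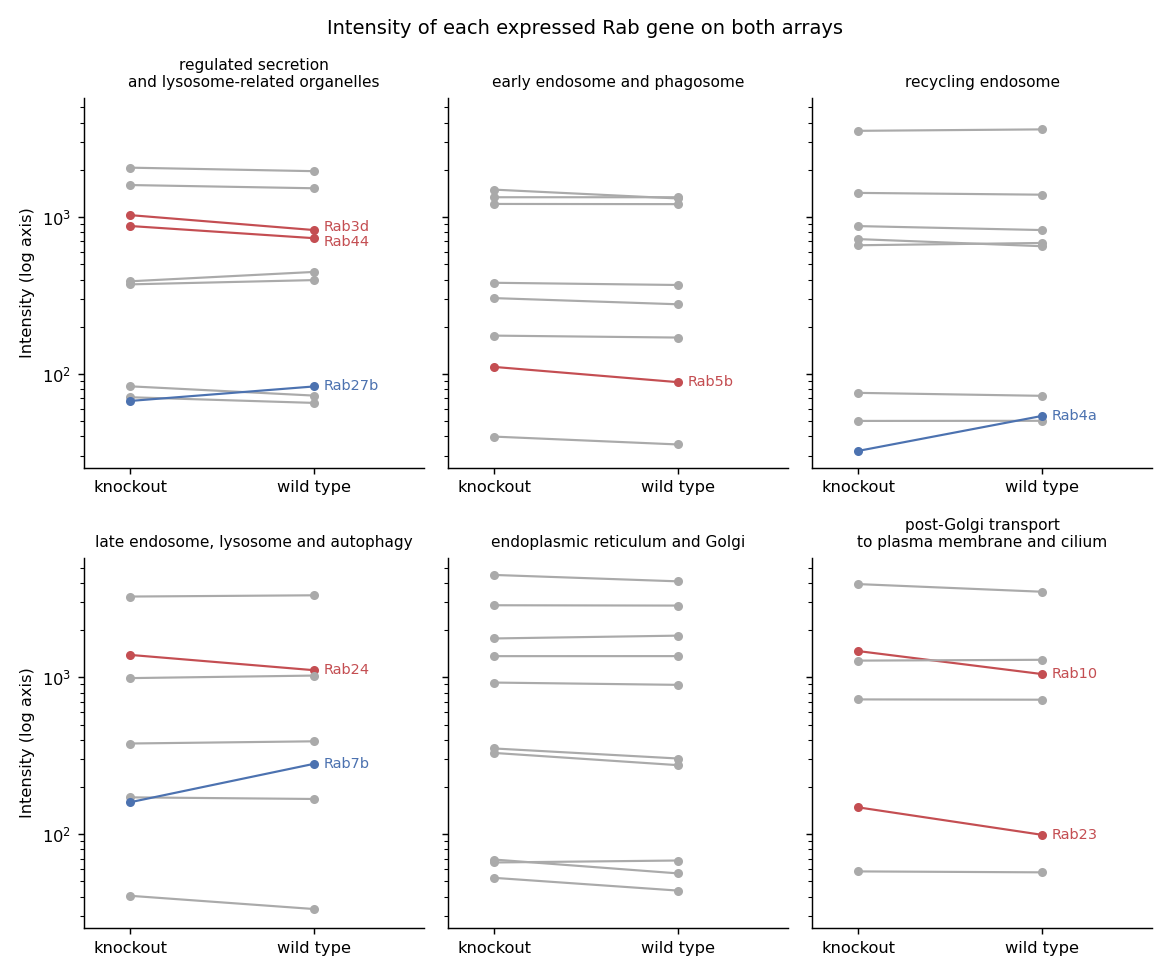
Intensity, on a log axis, of each expressed Rab gene on the knockout array (left) and the wild-type array (right), by role; Rab40c is not drawn. Genes at 0.25 or more above wild type are red and those at 0.25 or more below are blue; lines of most genes are nearly level, and those of Rab7b and Rab4a are the steepest.

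Close relatives differed in direction on their brightest probe sets in several families. Rab3d, Rab27a, Rab32 and Rab4b were above 0, while Rab3a, Rab27b, Rab38 and Rab4a were below. Rab7 and Rab7b were both below 0 and differed in size. Rab1a and Rab1b were both above 0, and Rab6a and Rab6b both below. Whether such differences between relatives exceed replicate error could not be tested with 1 array per genotype.

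**Figure D4:**
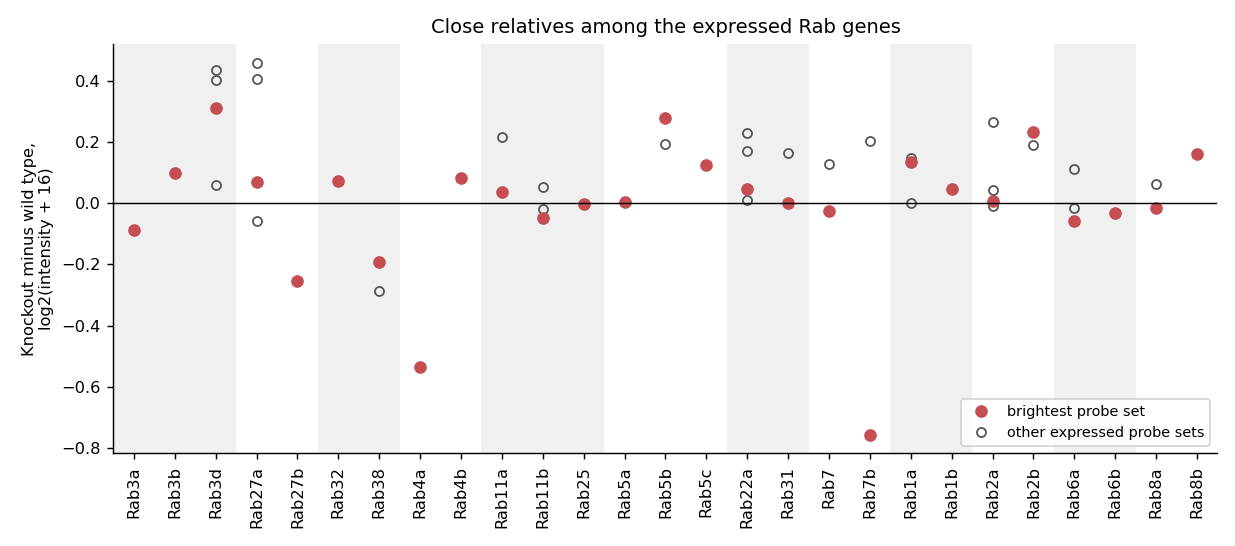
Difference, knockout minus wild type, on the log2(intensity + 16) scale for 12 sets of close relatives, separated by shading. Red points are the brightest probe set and open points other expressed probe sets; Rab27a spans -0.058 to 0.46, while the 1 expressed probe set of Rab27b lies at -0.25.

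The proteins that load, charge and read Rabs also had median differences near 0. Their counts above 0 stand beside 49.7% of all expressed genes. Of 7 expressed genes of prenylation and membrane cycling, 5 were above 0, with a median of 0.088 and a range from Rabggtb, the beta subunit of the Rab prenyltransferase (-0.13), to Rabac1 (0.21). Of 31 exchange factors, which charge Rabs with GTP, 18 were above 0, with a median of 0.039 and none at 0.5. The lowest was Hps1, a subunit of the exchange factor of Rab32 and Rab38 (-0.35), followed by Sh3bp5 (-0.14) and Sbf1 (-0.13). The highest were Dennd6a (0.22), Dennd1b (0.20) and Sbf2 (0.20). Of 36 genes listed as GTPase-activating proteins, the class that switches Rabs off, 18 were above and 18 below, with a median of 0.0017. Whether each listed gene acts on a Rab was not examined here. Evi5l (0.51), Tbc1d14 (0.48) and Tbc1d10c (0.25) stood highest. Tbc1d7 (-0.24), Tbc1d24 (-0.23) and Tbc1d8b (-0.19) stood lowest. These values are again those of the brightest probe set. Other expressed probe sets went the opposite way for Sbf1 (0.13), Tbc1d24 (0.12) and Sh3bp5 (0.020).

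Effectors and Rab kinases, 38 expressed, had 22 above 0 (57.9%, against 49.7% of all expressed genes) and a median of 0.039. The highest were Rab11fip5, a Rab11 effector (0.51), Mical1 (0.42) and Plekhm2 (0.32). The lowest were Rufy2 (-0.42), Rab11fip3 (-0.27) and Fyco1 (-0.19). Rufy2 was dim, at 46.4 on the wild-type array and 30.7, below the expression cut, on the knockout array. Among partners of Rab27a in granule docking, Unc13d (Munc13-4) stood at 0.044 and Sytl1 at 0.19, each from 1 expressed probe set. Both were named after their values were seen. The other measured Sytl genes of the list were below the expression cut. SNAREs and docking factors, 29 expressed, had 18 above 0, a median of 0.022 and a range from Vamp3 (-0.18) to Vamp2, of neutrophil granules (0.24). The expressed probe sets of Vamp3 reached 0.094 on the other side of 0. The 5 expressed Rab-like genes had a median of 0.015. In another family of small GTPases, 15 expressed Arf and Arl genes had a median of 0.031, with Arl3 lowest at -0.58 and Arf2 highest at 0.36. The lowest expressed probe set of Arf2 gave -0.037. The difference between the families was not tested.

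**Figure D5:**
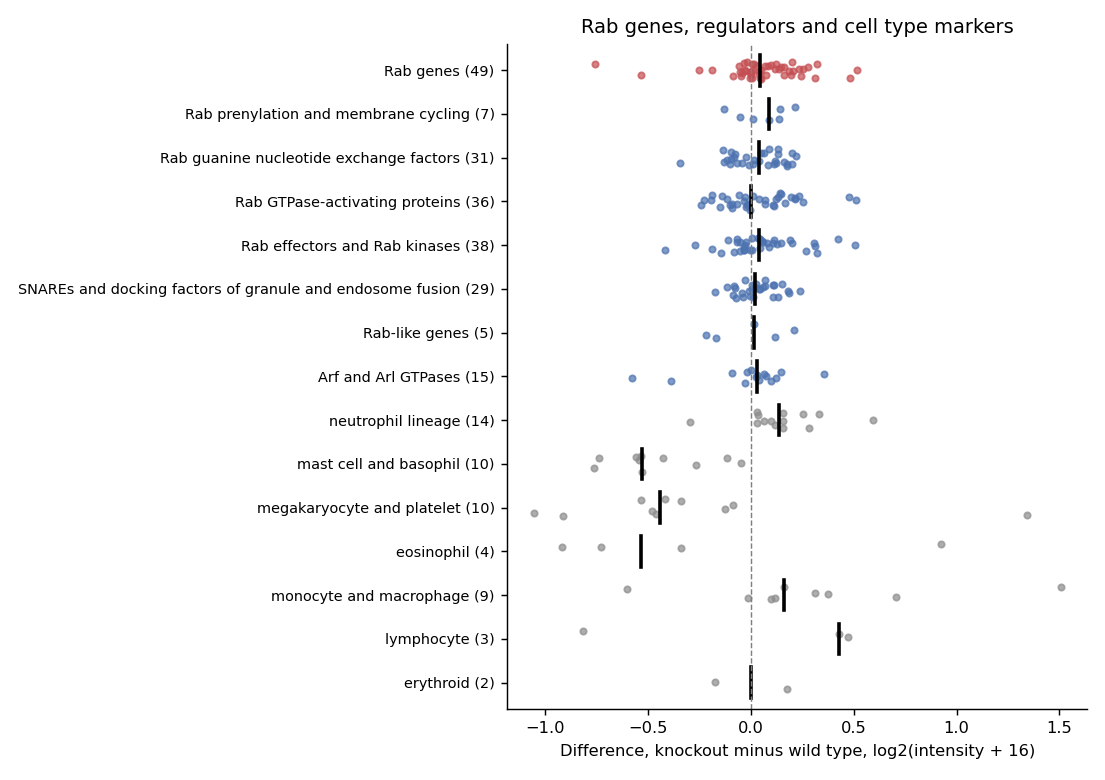
Difference, knockout minus wild type, on the log2(intensity + 16) scale for expressed Rab genes (red), regulators, Rab-like genes and the Arf and Arl family (blue) and cell type markers (grey), with the number of genes in brackets. Black bars are medians and the dashed line is the median of all expressed genes; the Rab median lies at 0.045 and that of the mast cell and basophil markers at -0.53.

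Promoter windows of RefSeq ran from 250 bases before to 50 after a gene's start on GRCm38.p6. They were used for 48 of the 59 Rab genes (60 windows). Windows of Rab18 and Rab27b were left out because of the chromosome they lie on. The windows of all genes were not filtered in this way, so the Rab shares describe a filtered set. The 60 Rab windows were richer in G and C than all 32851 windows, with medians of 61.2% and 52.7%. The GC box GGGCGG, read on both strands, was in 41 of the 60 (68.3%), against 35.7% of all windows. The box CCAAT was in 26 (43.3%, against 37.4%), and TATAAA in 4 (6.67%, against 13.6%). The E-box CACGTG was in 6 of the 60, against 7.15% of all windows. With 2 flanking bases on each side, its most frequent form in the Rab windows was GTCACGTGAC, of the kind bound by the lysosomal regulator Tfeb. This form was picked as the most frequent in these same windows, so its share there cannot be read as an excess. It was in 3 of the 60 Rab windows, against 0.326% of all windows. These were Rab24, Rab21 and Rab5a, whose differences were 0.32, 0.19 and 0.0040, so the motif did not go with 1 size of difference. TGACGTCA was in 2 windows and GAGGAAGT in 2 (3.33% each, against 1.79% and 3.20% of all windows), and TTGCGCAA in none (0.183% of all). The motifs were chosen with the array values known, and a match is a description of the letters in these windows.

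The 3 windows with the long E-box are shown since they hold the rarest motif found, with CACGTG and its longer form in capitals. They lie at chr13:55321931-55322230 on the minus strand (Rab24), chr10:115315542-115315841 on the minus strand (Rab21) and chr17:53478984-53479283 on the plus strand (Rab5a). The long form begins at base 251 of the Rab24 window, at the annotated start of the transcript, at base 219 for Rab21 and at base 154 for Rab5a.
Rab24: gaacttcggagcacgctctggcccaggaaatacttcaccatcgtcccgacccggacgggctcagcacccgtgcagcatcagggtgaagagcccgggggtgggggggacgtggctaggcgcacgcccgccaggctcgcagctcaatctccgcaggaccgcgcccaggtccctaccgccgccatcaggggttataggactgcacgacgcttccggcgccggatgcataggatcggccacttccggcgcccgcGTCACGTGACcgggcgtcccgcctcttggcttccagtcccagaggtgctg
Rab21: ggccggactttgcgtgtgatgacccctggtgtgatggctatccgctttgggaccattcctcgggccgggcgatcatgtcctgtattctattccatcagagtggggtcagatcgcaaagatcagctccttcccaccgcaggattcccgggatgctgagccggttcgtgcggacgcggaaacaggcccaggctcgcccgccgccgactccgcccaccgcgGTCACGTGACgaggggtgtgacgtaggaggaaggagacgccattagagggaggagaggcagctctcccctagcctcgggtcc
Rab5a: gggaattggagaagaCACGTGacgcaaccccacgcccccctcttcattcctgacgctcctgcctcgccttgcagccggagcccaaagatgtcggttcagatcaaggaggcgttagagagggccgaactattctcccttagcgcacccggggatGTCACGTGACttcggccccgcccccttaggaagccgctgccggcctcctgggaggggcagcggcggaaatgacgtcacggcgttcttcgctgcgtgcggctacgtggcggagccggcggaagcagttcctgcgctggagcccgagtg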

How the data were processed

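The values are the linear intensity of each probe set as the authors deposited it. How it was background-corrected, summarized and normalized is not stated (not given in the sources used here). Per the labels, Trizol RNA was turned into biotinylated cRNA by an Affymetrix 3' IVT kit, so signal comes mainly from transcript 3' ends. Of 45101 probe sets, 64 array controls were set aside. Of the other 45037, the platform annotation names 34945 for 1 gene, which were used, 932 for several and 9160 for none; no probe set named for several genes held a Rab gene. Updating symbols through Entrez identifiers changed no member.

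Intensities were used as deposited and transformed to log2(intensity + 16), which shrinks the differences of dim genes. Each gene is represented by its brightest probe set (highest mean over both arrays). It was expressed when that mean reached the median of all non-control probe sets (5.64). Wild type was subtracted from knockout, and genes at a difference of 0.5 (1.41-fold before the pseudocount) were counted. No test was run, for want of replicates. A further comparison list is not reported here. Python 3.11.15, numpy 2.4.6, pandas 2.3.3, statsmodels 0.14.6 and matplotlib 3.10.9 were used, and the steps were tested on simulated data.

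Members and lists were chosen with earlier results of these data known. Every Rab gene could be named. Of each regulator list, the rule took the 3 highest and 3 lowest and any at 1 or more, and of each marker list any member. For a Rab gene at 0.5 or more, the 3 nearest measured genes on each side could be named, in the gene order of GRCm38.p6. Unc13d, Sytl1 and the neighbours of Rab3b were named after their values were seen. The alternatives tried were pseudocounts of 1 and 64, quantile normalization, median centring, loess (span 0.3), a filter at the 75th percentile or none, the mean over a gene's probe sets, leaving out shared suffix classes, and thresholds of 0.3 and 1. Leaving out genes with probe sets of both signs, and the mean of expressed probe sets, were chosen after seeing the data.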

Additional observations from a re-analysis of the deposited data

How the results depend on the processing

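The median of the expressed Rab genes stayed above 0 under the 10 alternatives planned for it, between 0.026 with quantile normalization and 0.059 without shared suffix classes. It was 0.082 over 37 genes without those whose probe sets have both signs. The counts at 0.5 are small and changed often. The higher count was 0 with a pseudocount of 64, quantile normalization, a filter at the 75th percentile, the mean of probe sets or no shared suffix classes, 4 at a threshold of 0.3 and 0 at 1. The lower count was 1 with a pseudocount of 64, the stricter filter, no shared suffix classes or no genes of both signs, and 0 with the mean of probe sets or a threshold of 1. At the stricter filter 20 of 33 genes were above 0, and with the mean of probe sets 38 of 49 (52.6% of all expressed genes). Of 518 single-gene values under alternatives, 504 moved by less than 0.14 and 14 by more, in 8 genes. The 504 include the values under other filters and updated symbols, which left each gene's value as it was. The share that moved little is therefore no measure of stability. None of Rab23, Rab7b and Rab4a changed sign in these settings. Rab7b ran from -0.81 to -0.27, Rab4a from -0.72 to -0.29 and Rab23 from 0.30 to 0.58. Every setting used the brightest Rab7b probe set, alone or in a mean, and none used the other expressed one (0.20) alone. The settings could therefore not show the disagreement of those probe sets. Without shared suffix classes, Rab4a was not counted as expressed and was left out. Its remaining probe set, below the cut, gave 16.6 on the knockout array and 27.6 on the wild-type array (-0.42). Over all 49 genes, 38 kept their sign in every setting that gave them a value. No paired analysis was possible because each genotype has 1 array. Dim genes such as Rab4a, Rab27b, Rab34 and Rab17 are limited by their low signal.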

Other observations

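Neighbours of some Rab genes on the chromosome differed more than the Rab gene itself. On chromosome 4, Rab3b lies between Kti12 and Nrd1 in the order of measured genes. Kti12 gave 530.0 on the knockout array and 1019.9 on the wild-type array (-0.92), and Nrd1 gave 1119 and 1961 (-0.80). Beyond Kti12, Txndc12 stood at -0.89 and Btf3l4 at -0.93, whereas Rab3b itself stood at 0.097 and Osbpl9, beyond Nrd1, at 0.027. Rab3b was dim (71.1 on the knockout array and 65.5 on the wild-type array), so its value has less signal behind it than those of its neighbours.

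On chromosome 1, Rab7b lies next to Ctse, the protease cathepsin E, in the order of measured genes. Ctse gave 5643 on the knockout array and 3008 on the wild-type array (0.90), the opposite direction to the brightest probe set of Rab7b. On the other side, the unexpressed Pm20d1 was followed by Slc41a1, which gave 101.8 on the knockout array and 80.3 on the wild-type array (0.29), and by Rab29 (-0.044). Around Rab23 and Rab4a, expressed neighbours ranged from -0.13 (Nup133) to 0.16 (Acta1). The causes of these local differences were not tested.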
